A study of Mus musculus with 106 samples.

Results

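The marks H3K27ac and H3K4me3 were compared in hematopoietic stem cell (HSC) preparations of 6 diabetic and 6 control mice, using 24 of the 70 chromatin immunoprecipitation sequencing (ChIP-seq) libraries with a peak list. Members were the unstimulated HSC lists of either mark. They were joined into 12 pairs by disease group and replicate number, because each peak call named the input library of that number, so both lists of a pair shared 1 input. All mice were C57BL/6J, 12 to 14 weeks old. Diabetic mice had received streptozotocin, a toxin of pancreatic beta cells, at 42 to 45 mg/kg per day by intraperitoneal injection for 5 days, and tissue was taken 6 weeks after the last injection from animals with a nonfasting glucose above 13.9 mmol/L. Control mice had not been made diabetic. "HSC" here means femur and tibia marrow from which cells bearing CD3, CD4, B220, Ter119 or Gr1 had been removed with magnetic beads. Such a fraction holds stem cells together with the more numerous progenitors and any other marrow cell that lacks those antigens. In such a mixture, a peak in few cells and a weak peak in many cells cannot be told apart.

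H3K4me3 is trimethylation of lysine 4 on histone H3. It is laid down by the SET1 and MLL family of enzymes, sits around start sites that are active or poised, and is strongest over CpG islands. H3K27ac is acetylation of lysine 27 on the same histone tail, written mainly by the enzymes CBP and p300, and it marks start sites and distal enhancers in use. Promoters with H3K4me3 and little H3K27ac include those of developmental regulators, which in many cell types also carry the silencing methylation of lysine 27. That methylation was not measured here.

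A promoter was scored as carrying a mark when 1 of the 20000 peaks with the highest −log10 p in a list lay within 1000 bp of any annotated start site of a protein-coding gene. A distal peak lay more than 1000 bp from every annotated start site of any gene. Peaks were ranked within their own list by −log10 p, and a rank is given as a percentile, with 100 for the strongest peak and 0 for no peak. The fixed number of peaks was used because the lists differed in length. H3K27ac lists held 51162 to 139452 peaks covering 28.2 to 71.3 Mb, and H3K4me3 lists 13730 to 145750 peaks covering 5.62 to 65.6 Mb. The shortest list, H3K4me3 of diabetic replicate 6, had 13730 peaks, so all of them were used, and it stood apart from the other 23 lists. In 10 of 12 pairs the H3K27ac list was longer, by a mean log2 ratio of 0.81 (SD, 0.77; adjusted p = 0.00820 in an exact sign-flip test over pairs, 2-sided). A longer list places its 20000th peak at a higher percentile, so ranks of different lists are read as positions within a list, not as amounts of a mark.

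Named promoters and regions of each kind are shown here because their base composition recurs in the results. The first 6 sequences are RefSeq promoter windows, 250 bases before to 50 after the start of transcription, on build GRCm38, with each CpG in capitals. Ptgr2 (chr12:84285046-84285345, plus strand), a prostaglandin reductase gene, and Gp9 (chr6:87777820-87778119, plus strand), a platelet glycoprotein gene, had a top H3K27ac peak within 1000 bp of the start site in all 12 lists, and one lay over the printed window in 12 lists at Ptgr2 and 11 at Gp9. Sox2 (chr3:34649745-34650044, plus strand) and Pax2 (chr19:44756656-44756955, plus strand), regulators of embryonic tissues, had H3K4me3 in all 12 lists and H3K27ac in none. Elf2 (chr3:51277465-51277764, minus strand), an ETS family factor, and Runx1 (chr16:92697280-92697579, minus strand), a master regulator of blood stem cells, had both marks in all 12 pairs.
Ptgr2: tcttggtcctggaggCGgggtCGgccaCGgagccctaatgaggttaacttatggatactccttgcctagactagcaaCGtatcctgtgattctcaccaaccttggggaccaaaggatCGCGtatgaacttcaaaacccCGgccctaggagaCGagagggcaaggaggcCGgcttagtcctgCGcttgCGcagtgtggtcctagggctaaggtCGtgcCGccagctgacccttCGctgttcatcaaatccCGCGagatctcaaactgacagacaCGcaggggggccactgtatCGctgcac
Gp9: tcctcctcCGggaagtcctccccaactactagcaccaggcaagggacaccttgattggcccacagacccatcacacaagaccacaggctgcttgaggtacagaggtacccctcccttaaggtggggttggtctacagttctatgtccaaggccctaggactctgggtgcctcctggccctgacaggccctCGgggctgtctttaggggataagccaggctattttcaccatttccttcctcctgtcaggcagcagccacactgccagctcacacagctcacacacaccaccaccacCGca
Sox2: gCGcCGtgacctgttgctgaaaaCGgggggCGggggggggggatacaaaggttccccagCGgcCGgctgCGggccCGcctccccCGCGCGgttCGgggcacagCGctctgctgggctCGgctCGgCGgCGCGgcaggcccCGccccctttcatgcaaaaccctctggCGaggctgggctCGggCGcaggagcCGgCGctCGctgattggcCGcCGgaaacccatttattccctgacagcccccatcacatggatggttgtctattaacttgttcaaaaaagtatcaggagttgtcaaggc
Pax2: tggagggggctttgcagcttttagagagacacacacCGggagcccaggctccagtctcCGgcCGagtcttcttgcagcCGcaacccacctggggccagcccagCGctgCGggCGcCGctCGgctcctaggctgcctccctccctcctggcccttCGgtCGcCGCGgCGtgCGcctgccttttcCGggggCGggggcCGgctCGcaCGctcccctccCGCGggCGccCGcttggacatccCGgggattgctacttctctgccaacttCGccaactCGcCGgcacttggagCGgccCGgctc
Elf2: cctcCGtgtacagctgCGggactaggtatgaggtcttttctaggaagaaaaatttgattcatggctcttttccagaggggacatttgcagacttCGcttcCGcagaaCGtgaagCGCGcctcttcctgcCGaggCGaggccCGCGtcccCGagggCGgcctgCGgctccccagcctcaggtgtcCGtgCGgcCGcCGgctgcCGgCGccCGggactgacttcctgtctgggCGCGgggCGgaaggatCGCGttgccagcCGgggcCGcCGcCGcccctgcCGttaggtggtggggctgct
Runx1: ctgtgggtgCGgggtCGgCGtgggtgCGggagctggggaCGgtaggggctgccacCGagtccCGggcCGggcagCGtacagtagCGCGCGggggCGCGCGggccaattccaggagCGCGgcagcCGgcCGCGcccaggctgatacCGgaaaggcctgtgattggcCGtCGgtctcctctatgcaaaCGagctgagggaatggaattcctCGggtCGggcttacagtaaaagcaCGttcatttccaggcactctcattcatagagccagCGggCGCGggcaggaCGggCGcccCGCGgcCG
The windows held 18 CpG dinucleotides at Ptgr2, 3 at Gp9, 27 at Sox2, 30 at Pax2, 31 at Elf2 and 35 at Runx1.

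The next 3 sequences are distal, on the plus strand of GRCm38. A window in an intron of Map2k3 (chr11:60935448-60935747) lay in a region with H3K27ac in all 12 lists and H3K4me3 in none. It was chosen among such regions because it holds motifs of all 3 blood transcription factor families searched for, and capitals mark the motifs: AGATAA or AGATAG or TGATAA or TGATAG for GATA factors, TGTGGT for RUNX factors and GAGGAAGT for ETS factors including PU.1, on either strand. Windows in coding exons of the developmental genes Uncx (chr5:139547293-139547592) and Dmrta2 (chr4:109980089-109980388) lay in regions with the opposite pattern, and capitals mark CpG. The last sequence is the small RNA gene Rn4.5s (chr6:47654921-47655094, minus strand), a member of the array in which 25.9% of the shared distal regions lay, again with CpG in capitals.
Map2k3: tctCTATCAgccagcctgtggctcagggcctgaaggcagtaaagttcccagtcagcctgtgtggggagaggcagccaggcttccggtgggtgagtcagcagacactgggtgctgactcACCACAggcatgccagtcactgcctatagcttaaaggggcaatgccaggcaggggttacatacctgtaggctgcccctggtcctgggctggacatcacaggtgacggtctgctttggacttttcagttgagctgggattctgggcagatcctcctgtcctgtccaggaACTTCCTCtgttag
Uncx: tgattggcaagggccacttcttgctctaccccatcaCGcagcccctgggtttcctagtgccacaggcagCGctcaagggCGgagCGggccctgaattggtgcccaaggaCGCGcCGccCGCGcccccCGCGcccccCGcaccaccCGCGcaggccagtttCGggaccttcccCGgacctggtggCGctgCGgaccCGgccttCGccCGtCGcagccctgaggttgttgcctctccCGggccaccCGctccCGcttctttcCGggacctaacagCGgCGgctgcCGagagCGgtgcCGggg
Dmrta2: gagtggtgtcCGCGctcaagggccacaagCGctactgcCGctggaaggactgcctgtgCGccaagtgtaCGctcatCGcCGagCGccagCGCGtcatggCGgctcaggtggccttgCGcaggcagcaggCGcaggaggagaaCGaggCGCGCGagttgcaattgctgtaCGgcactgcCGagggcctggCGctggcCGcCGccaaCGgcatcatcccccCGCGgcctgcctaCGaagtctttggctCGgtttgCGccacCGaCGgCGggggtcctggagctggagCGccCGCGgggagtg
Rn4.5s: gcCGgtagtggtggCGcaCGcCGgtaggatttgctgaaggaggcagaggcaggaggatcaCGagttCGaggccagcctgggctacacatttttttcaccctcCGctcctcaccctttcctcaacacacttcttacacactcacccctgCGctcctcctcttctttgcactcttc

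Most promoters with one mark carried the other. Of 21938 protein-coding genes, both marks were at the promoter in 32.3% of genes in the lowest pair, 45.6% in the median pair and 50.2% in the highest (mean, 44.8%; SD, 4.29; n = 12). H3K27ac alone was found in 4.73% to 15.8% (mean, 8.43%; SD, 3.20), and H3K4me3 alone in 7.44% to 12.9% (mean, 9.12%; SD, 1.73). Neither mark was found at 37.7% (SD, 2.00). The low extreme for both marks and the high extreme for H3K27ac alone belonged to diabetic pair 6, which had the short H3K4me3 list, whereas the other 11 pairs had both marks at 43.3% to 50.2% of genes. The share of genes with H3K4me3 (53.9%) and with H3K27ac (53.2%) differed by 0.690 percentage points (SD of the difference, 4.45; 7 of 12 pairs; p = 0.596, exact sign-flip test). With the top 10000 peaks the difference was −3.05 percentage points, with H3K27ac at more promoters (adjusted p = 0.00769 in the exact sign-flip test), so the order of the marks by promoter share depended on how many peaks were taken.

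**Figure D1:**
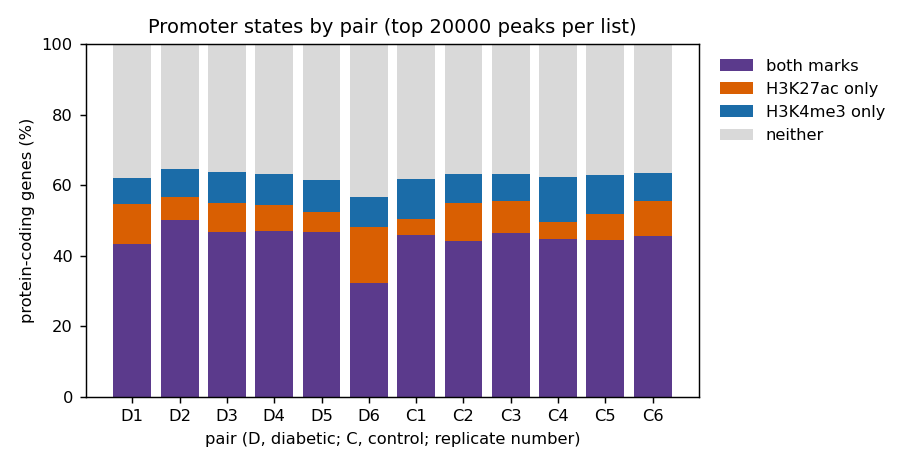
Share of 21938 protein-coding genes (vertical axis, %) with both marks, H3K27ac only, H3K4me3 only or neither at the promoter in each of the 12 pairs (horizontal axis; D, diabetic; C, control). Both marks made up 32.3% to 50.2% of genes, with diabetic pair 6 the lowest.

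Gene by gene, 5065 promoters carried both marks in all 12 pairs and 8118 in 10 or more pairs, whereas 6396 had no peak in any of the 24 top lists. Without diabetic pair 6, 6034 promoters carried both marks in the 11 remaining pairs. An exact sign test over discordant pairs, those in which 1 mark was present and the other absent, was run on the 3513 genes with at least 6 such pairs, with Benjamini-Hochberg adjustment. It called 3152 of them (89.7%), 1256 for H3K27ac (35.8%) and 1896 for H3K4me3 (54.0%). Because fewer discordant pairs could not reach the threshold, these shares describe genes already known to be discordant. All 1256 and all 1896 calls had the same direction in the diabetic and in the control pairs. The calls were made over these same pairs, so this largely follows from being called and is not a separate check. Without diabetic pair 6 the counts were 1071 and 1775.

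Few of these promoters lacked the other mark altogether. H3K27ac was in all 12 top lists and H3K4me3 in none at 35 promoters, and the reverse held at 218. When peaks of any strength in the full deposited lists were counted, 1114 of the 1256 promoters called for H3K27ac had an H3K4me3 peak in 6 or more lists and 8 had one in no list. Of the 1896 called for H3K4me3, 1301 had an H3K27ac peak in 6 or more lists and 109 in none. The calls therefore separate promoters by which mark ranked among the strong peaks, and complete absence was the exception.

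**Figure D2:**
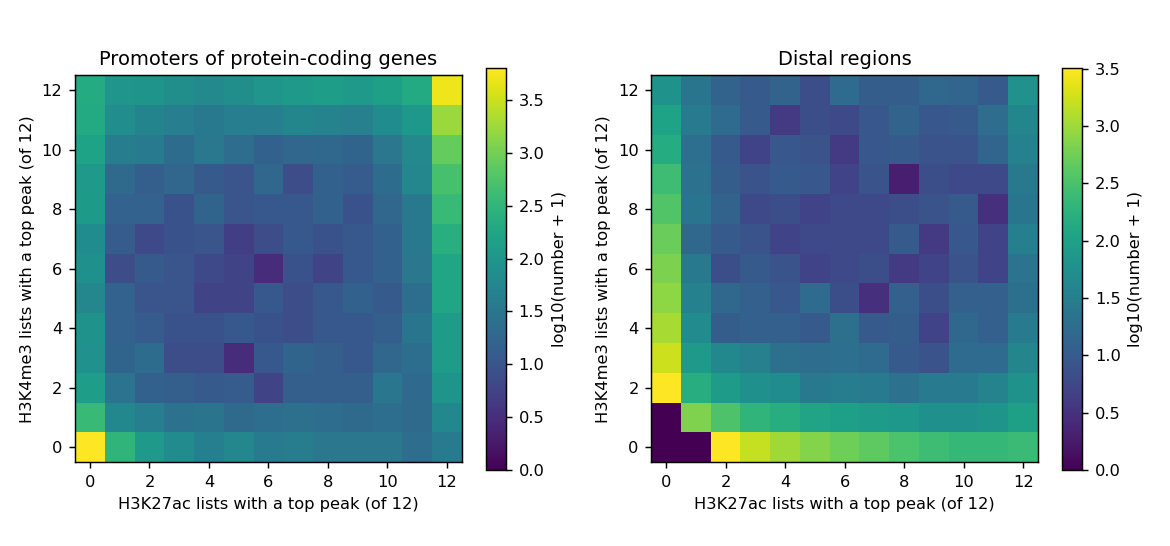
Number of promoters (left) and distal regions (right), as color on a log10(number + 1) scale, by how many of the 12 H3K27ac lists (horizontal axis) and 12 H3K4me3 lists (vertical axis) held a top peak. Promoters gathered at 12 of 12 for both marks (5065) and at none (6396), and distal regions along the axes, with 58 at 12 of 12 for both; distal regions found in under 2 libraries were left out, which empties the lower left corner.

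Cd3d, Gpr171, Cnr2 and Ptgr2 were among the 10 promoters called for H3K27ac with the widest gap in rank. Cd3d, a chain of the T cell receptor complex, had H3K27ac ranks from 75.9 through a median of 91.0 to 94.0 and an H3K4me3 peak of any strength in 1 list. The kit used to deplete the marrow also binds CD3, so this promoter was marked in the fraction left after that step. Gpr171, an orphan receptor gene, ranked 79.7, 90.0 and 94.6 (lowest, median and highest) for H3K27ac. Cnr2, the cannabinoid receptor of immune cells, ranked 82.4, 91.5 and 94.4. Ptgr2 ranked 79.9, 91.4 and 96.8 for H3K27ac, with H3K4me3 peaks of any strength in 2 lists. For each of these 4 genes the ranges of the marks did not overlap, and adjusted p was 0.00534 in the exact sign test, with H3K27ac alone in 12 of 12 pairs. Lgals7, 1110012L19Rik, Yju2, Piga and the divergent genes F8 and Fundc2, which shared a peak, completed the leading 10.

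Sox2, Hoxd11, Wnt5a and Hcn4 were among the 10 promoters called for H3K4me3 with the widest gap. Sox2, a pluripotency and neural factor, had H3K4me3 ranks of 57.4, 91.9 and 98.1 (lowest, median and highest), with H3K27ac peaks of any strength in 2 lists. Hoxd11, a limb patterning gene, ranked 78.3, 91.1 and 98.2 for H3K4me3. Wnt5a, a secreted signaling ligand, ranked 58.9, 87.7 and 95.9 and had no H3K27ac peak in any deposited list. Hcn4, the pacemaker channel of the heart, ranked 71.3, 88.6 and 97.2. Each had H3K4me3 alone in 12 of 12 pairs, and adjusted p was 0.00534 in the exact sign test. Xkr7, Rbmxl2, Kcnk9, Ccna1, Tcfl5 and Lrrc7 made up the rest of the leading 10, and Xkr7, Rbmxl2, Kcnk9, Ccna1 and Tcfl5 had no H3K27ac peak in any deposited list.

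Kdm2a, Hsp90aa1, Xpo1 and Hnrnpu were among the 10 promoters ranked highest for both marks. Kdm2a, a histone lysine demethylase, had median ranks of 99.8 for H3K27ac and 99.4 for H3K4me3. Hsp90aa1, a chaperone, had 99.3 and 99.1, Xpo1, a nuclear export receptor, 99.2 and 99.4, and Hnrnpu, an RNA-binding protein, 99.8 and 98.5. In these 4 the lowest rank of any of the 24 lists was 94.5, for H3K4me3 at Hnrnpu. Baz2b, Ppp1r12a, Ankrd11, Rmnd5a, Elf2 and 1810013L24Rik followed the same pattern. Where both marks were present in all 12 pairs, H3K27ac had the higher mean rank at 4580 of 5065 promoters, with median mean ranks of 96.7 and 91.5, and the longer H3K27ac lists favor that direction. Promoters with H3K27ac ranked much higher included Ccdc15 (medians, 98.5 and 78.4) and Zc3hav1, an antiviral RNA-binding protein (98.8 and 80.7). Promoters with H3K4me3 ranked higher included Nfia, a developmental transcription factor (94.4 for H3K27ac and 99.4 for H3K4me3), and Sfi1 (90.6 and 98.2), a gene known to have copies in the mouse genome, so that its reads are uncertain. H3K4me3 ranked higher than H3K27ac in all 12 pairs at 16 promoters, against 629 for the reverse.

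Lists of genes with known roles separated along the same lines. They were chosen with earlier results of these data known, so their counts are descriptions, to be read beside the 5.73% of all protein-coding genes called for H3K27ac and 8.64% called for H3K4me3. Of all protein-coding genes, 23.1% had both marks in all 12 pairs and 29.2% had no top peak of either mark. All 32 developmental regulators were called for H3K4me3 and none for H3K27ac. Each had H3K4me3 in 8 to 12 top lists and H3K27ac in 0 to 5, and 22 of 32 had H3K27ac in none. Pax2, of kidney and eye, had H3K4me3 ranks of 82.4, 92.6 and 98.1 against 0, 15.9 and 80.0 for H3K27ac (lowest, median and highest), and the ranges did not overlap. Neurog2, a neuronal factor, had 83.5, 94.7 and 97.8 for H3K4me3 and 0, 70.2 and 82.4 for H3K27ac. Weaker H3K27ac peaks were present at many of these genes, since 14 of 32 had one in 6 or more deposited lists. With all deposited peaks counted, 19 of 32 were called for H3K4me3 and none for H3K27ac, and with the top 10000 peaks 24 and none.

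Transcription factors of stem and progenitor cells mostly carried both marks. Of 17, 11 had both in all 12 pairs, 14 in 10 or more and none lacked both. Runx1 ranked 88.4, 95 and 97.7 for H3K27ac and 78.0, 92.2 and 97.9 for H3K4me3. Gata2, required for stem cell maintenance, ranked 85.1, 92.9 and 95.3 for H3K27ac and 77.3, 94.9 and 98.5 for H3K4me3. At both genes the ranges of the marks overlapped widely. Tal1, a factor that specifies blood, had a higher H3K27ac median (98.1) than H3K4me3 median (87.7). Spi1, which encodes PU.1, had H3K27ac in 12 lists and H3K4me3 in 10, with medians of 94.1 and 76.8. Lyl1, a relative of Tal1, was the only one called, with H3K27ac in 12 lists and H3K4me3 in 3 (adjusted p = 0.00870, exact sign test).

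Surface markers of stem cells were more weakly marked than these transcription factors. None of 12 had both marks in all pairs, against 23.1% of all protein-coding genes. Neither mark was found in any pair at 3 (25%), near the 29.2% of all genes. Kit, the receptor for stem cell factor, had each mark in 11 lists, and Cd34, a stem cell antigen, each in 10. Ly6a, which encodes Sca-1, had no top peak of either mark and no H3K4me3 peak at all. Cd48, an antigen of committed progenitors, was called for H3K27ac (10 lists against 2; adjusted p = 0.0134, exact sign test). Fgd5, an endothelial and stem cell marker, was called for H3K4me3 (11 lists against 5; adjusted p = 0.0351, exact sign test). With all deposited peaks counted, 3 of the 12 were called for H3K27ac and none for H3K4me3.

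Erythroid genes leaned to H3K27ac in these top lists, though not with the top 10000 peaks. Of 13, 5 were called for H3K27ac, none for H3K4me3, and 3 had both marks in all pairs. Hba-a1 and Hbb-bs, adult globins, were in 12 and 10 H3K27ac top lists and in 4 and 0 H3K4me3 lists, although reads from near-identical globin copies make these values uncertain. Ermap, a red cell membrane protein, and Hbb-bt, another adult globin, were also called. Klf1, a master regulator of red cells, had both marks in 11 pairs, and Epor and Tfrc, receptors for erythropoietin and transferrin, in all 12. Gp9 was the 1 megakaryocyte gene of 7 that was called, for H3K27ac, with ranks of 79.9, 89.6 and 92.0 against 0, 18 and 81.8 for H3K4me3. With the top 10000 peaks, 1 of the 13 erythroid genes was called for H3K27ac and 1 had both marks in all pairs. That called share was below the 10.5% of all protein-coding genes. Erythroid calls for H3K27ac were 5 with the top 40000 peaks, 4 with all deposited peaks counted and 6 by fold.

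Genes of mature white cells were sparsely marked among the top peaks. The shares with no top peak were 42.9% of neutrophil granule, 50% of macrophage and 56.25% of lymphoid genes, against 29.2% of all protein-coding genes. Of 14 neutrophil granule genes, 6 had no top peak of either mark, Cebpe was called for H3K27ac and Mmp9 for H3K4me3. Of 14 macrophage genes, 7 had none, and 2 were called for H3K4me3, among them Mertk, a receptor for the uptake of dying cells. Of 16 lymphoid genes, 9 had none. In that list the transcription factors Pax5, Ebf1 and Bcl11b were called for H3K4me3 and the receptor components Cd3d and Cd79b for H3K27ac. Pax5, the B cell commitment factor, ranked 39.6, 92.3 and 97.1 for H3K4me3 and had H3K27ac in no top list. Of the genes listed for the depleted antigens, Cd3e, Cd4, Ptprc and Ly6g had no top peak in any list, while Cd3d, which encodes another CD3 chain, had H3K27ac in all 12. Of 11 stromal and endothelial genes, Pdgfrb was called for H3K27ac and Lepr and Cxcl12 for H3K4me3, and 4 had no top peak. With all deposited peaks counted, no gene of the neutrophil granule, macrophage, lymphoid or stromal and endothelial lists was called for H3K4me3. Called for H3K27ac were then 2 neutrophil granule, 3 macrophage and 5 lymphoid genes, and none of the stromal and endothelial list. The part of contaminating cells in these results was not tested.

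Housekeeping and metabolic genes were mostly marked by both. Ribosomal protein genes had both marks in all pairs at 33 of 76 and in 10 or more pairs at 65, and 5 were called for H3K27ac and none for H3K4me3. With the top 10000 peaks the 5 became 24. Proteasome genes gave 15 and 28 of 39, with 3 called for H3K27ac. Of 18 entries for glycolysis and glucose transport (Aldoa was listed under 2 identifiers), 12 had both marks in 10 or more pairs. The called shares for H3K27ac, 6.58% of ribosomal protein, 7.69% of proteasome and 5.56% of glycolysis entries, were near the 5.73% of all genes. This did not hold with the top 10000 peaks. Called for H3K27ac were then 24 of 76 ribosomal protein, 12 of 39 proteasome and 6 of 18 glycolysis entries. Each of these shares was above the 10.5% of all protein-coding genes called with that number of peaks. With all deposited peaks counted, the calls were 2, 1 and 2, against 4.31% of all protein-coding genes. Hk1, the housekeeping hexokinase, had H3K27ac in 12 lists and H3K4me3 in 11, with median ranks of 95 and 87.4, and Pgk1, a glycolytic kinase on the X chromosome, was called for H3K27ac (8 lists against 1; adjusted p = 0.0214, exact sign test). All 10 immediate early genes, among them Fos and Egr1, had both marks in 10 or more pairs. With the top 10000 peaks, 3 of these 10 were called for H3K27ac. The H3K4 methylation enzymes and demethylases had both in all pairs at 10 of 14, and the enzymes and readers of H3K27 acetylation and methylation at 8 of 12, including Ep300, which encodes p300 and had median ranks of 99.9 for H3K27ac and 97.4 for H3K4me3.

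Inflammatory genes were varied. Of 12, 5 (41.7%) had no top peak of either mark, against 29.2% of all protein-coding genes. Il6, a cytokine gene, had no top peak in any list, with weaker H3K27ac peaks in 6 deposited lists and H3K4me3 peaks in none. Ptgs2, the inducible cyclooxygenase, was called for H3K27ac (11 lists against 3) and Nos2, the inducible nitric oxide synthase, for H3K4me3 (12 lists against 4), each with an adjusted p of 0.0134 in the exact sign test. With all deposited peaks counted, 4 of the 12 were called for H3K27ac and none for H3K4me3. Among 1093 olfactory receptor genes, which are silent outside the nose, 1074 had no top peak, 2 were called for H3K27ac and 3 for H3K4me3.

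**Figure D3:**
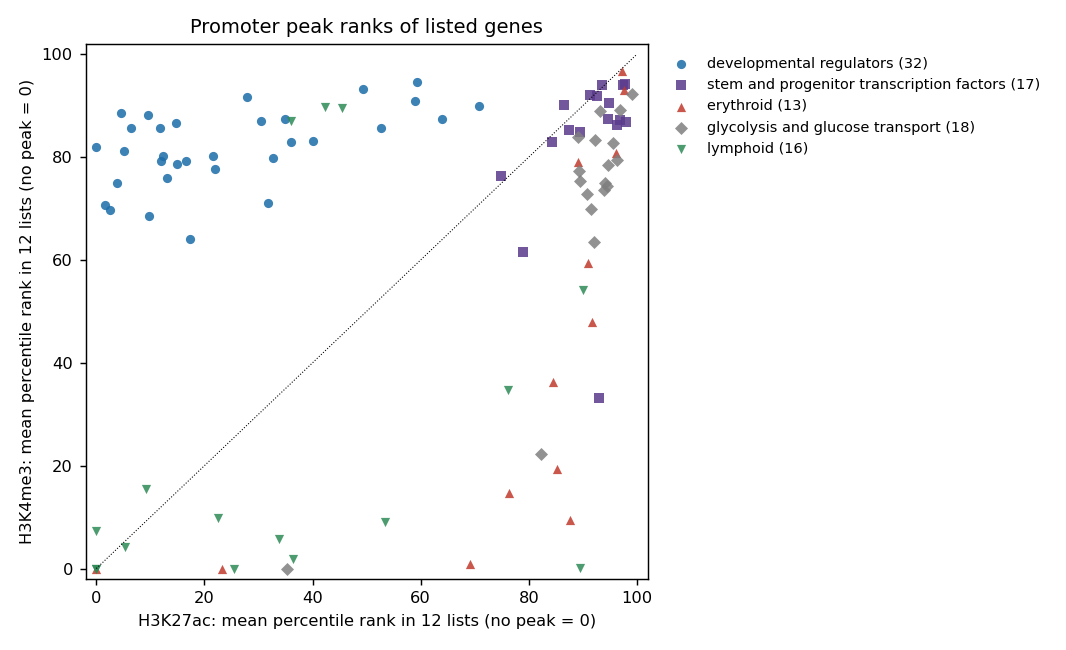
Mean percentile rank of the promoter peak over 12 lists for H3K27ac (horizontal axis) and H3K4me3 (vertical axis), with lists lacking a peak counted as 0; each point is a gene, colored by list. The 32 developmental regulators all lay above the diagonal, and the 17 stem and progenitor transcription factors mostly lay near the upper right corner.

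CpG content was not used to define the classes and differed among them. It was read at a single start site per gene, the one under peaks of the most top lists. Where start sites tied, as in all genes without a top peak, the one with the lowest coordinate was taken. Peaks thus took part in choosing the windows, and the effect of that choice was not tested. The CpG ratio (observed CpG over the number its base composition would give) was taken over 300 bases around that start site. Its median was 0.877 at the promoters with both marks in all 12 pairs, 0.746 at those called for H3K4me3, 0.581 at those called for H3K27ac and 0.153 at those in no top list, against 0.625 over all genes. Both marks in all pairs were found at 0.428% of genes with a ratio of 0.2 or less and at 55.9% of genes with a ratio over 1.0. The share called for H3K27ac was highest, 10.2%, at ratios from 0.4 to 0.6. The share called for H3K4me3 was highest, 15%, at ratios from 0.6 to 0.8. The printed windows show this range, from 3 CpG at Gp9 to 35 at Runx1.

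**Figure D4:**
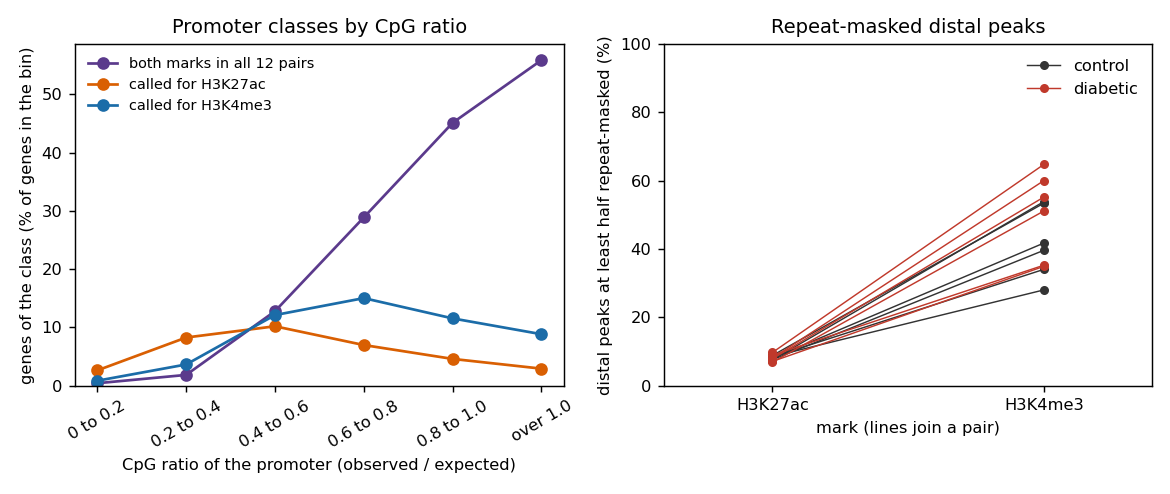
Left, share of the genes in each CpG ratio bin (horizontal axis) that had both marks in all 12 pairs, were called for H3K27ac or were called for H3K4me3 (vertical axis, %); both marks rose from 0.428% to 55.9%. Right, share of distal peaks at least 50% repeat-masked (vertical axis, %) for the H3K27ac and H3K4me3 lists of each pair, joined by a line; all 12 lines rose.

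The marks were close together at the promoters they shared. Within each pair the median distance between their summits was 40 to 70 bp. Both lay just downstream of the start site, with a median offset of 123 bp (120 to 129 bp over lists) for H3K27ac and 119 bp (113 to 132 bp) for H3K4me3. Peaks near start sites were narrower for H3K4me3, with a median width of 766 bp (SD, 184; range, 379 to 995) against 1077 bp (SD, 92.2; range, 867 to 1215) for H3K27ac. The difference was −0.53 on the log2 scale and had that sign in 12 of 12 pairs (adjusted p = 0.00171, exact sign-flip test). It was −0.10 over all deposited peaks, where the adjusted p was 0.229 in that exact test.

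Ranks of shared promoter peaks agreed in part. Spearman rho between the marks of a pair was 0.241 at the lowest, 0.482 at the median and 0.692 at the highest, over 7809 to 14741 promoters with a peak of any strength in both lists. Between lists of the same mark the mean was 0.902 for H3K27ac (66 pairs of lists) and 0.581 for H3K4me3, so H3K4me3 lists were less alike among themselves than H3K27ac lists. At distal regions with a peak in both lists, rho between the marks was −0.0975 at the lowest, 0.0423 at the median and 0.188 at the highest (520 to 9036 regions). Lists of the same mark also agreed less at distal regions than at promoters, with a mean of 0.386 for H3K27ac and 0.312 for H3K4me3. These regions came from merging the top 20000 peaks of either mark, whereas the promoters were not chosen by peak strength. The promoter and distal sets were therefore not selected alike. Promoters are not independent of one another, and the points of a pair share an input, so these are descriptions. Agreement in rank was higher at promoters than at distal regions in 12 of 12 pairs, by a mean of 0.421 (SD, 0.216; adjusted p = 0.00171, exact sign-flip test). The part of the unlike selection in this difference was not tested. When only the top 20000 peaks were ranked, mean rho was 0.343 at promoters and 0.254 at distal regions, which brought the difference to 0.0892 with an adjusted p of 0.00342 in that exact test.

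Promoter rho moved with the length of the H3K4me3 list. Over 12 pairs, Pearson r with log2 peak number was 0.891 (permutation p = 7e-05, adjusted p = 0.00014) and Spearman rho 0.902 (permutation p = 0.00018, adjusted p = 0.00036), over 2 relations tested. Without the 2 pairs farthest from the median length r was 0.823, and within the diabetic and control pairs it was 0.939 and 0.783. Distal rho went the other way, with r of −0.838 (permutation p = 0.00053, adjusted p = 0.00053) and Spearman rho of −0.818 (permutation p and adjusted p = 0.00194). Without the 2 farthest pairs r was −0.746, and within groups it was −0.906 for diabetic and −0.335 for control pairs. Agreement between the marks in a pair therefore cannot be told apart from the length of its H3K4me3 list.

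**Figure D5:**
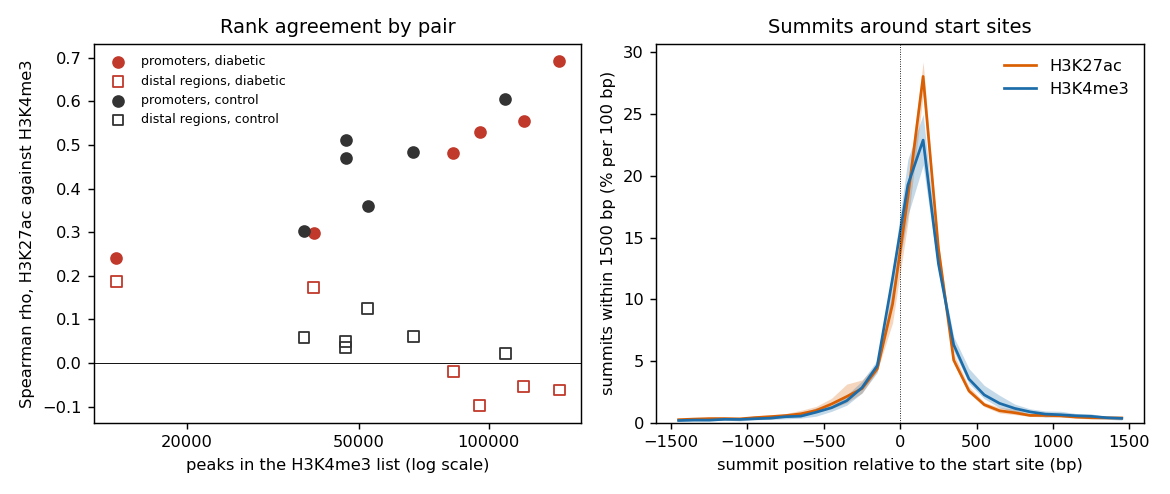
Left, Spearman rho between the marks of each pair (vertical axis) against the number of peaks in its H3K4me3 list (horizontal axis, log scale), for promoters (filled circles) and distal regions (open squares) in diabetic and control mice; promoter rho lay between 0.241 and 0.692 and distal rho between −0.0975 and 0.188. Right, share of the summits within 1500 bp of a start site (vertical axis, % per 100 bp) by position (horizontal axis, bp), as the mean of 12 lists with the lowest and highest shaded; both marks were highest just downstream.

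Away from start sites the marks went apart. Among regions near start sites, the mean Jaccard index (shared regions over all regions of 2 lists) across the marks was 0.603, against 0.80 between H3K27ac lists and 0.746 between H3K4me3 lists. Among distal regions it was 0.0718 across the marks (0.0364 to 0.113 over 144 pairs of lists), against 0.357 (0.287 to 0.457) between H3K27ac lists and 0.275 (0.156 to 0.505) between H3K4me3 lists. No distal comparison across the marks reached the lowest value within a mark. Distal peaks made up 32.9% of the H3K27ac peaks (SD, 2.21) and 29.8% of the H3K4me3 peaks (SD, 2.59), a difference of 3.17 percentage points (9 of 12 pairs; adjusted p = 0.0177, exact sign-flip test). Of distal H3K4me3 peaks, 13.8% (SD, 1.5) overlapped an H3K27ac peak, and of distal H3K27ac peaks, 11.4% (SD, 2.88) overlapped an H3K4me3 peak, which differed by 2.48 percentage points (10 of 12 pairs; adjusted p = 0.00456, exact sign-flip test). With the top 10000 peaks both differences had the opposite sign, −2.01 and −1.58 percentage points, with adjusted p of 0.0775 and 0.346 in that exact test.

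A large part of the distal H3K4me3 peaks lay in repeats. Peaks with at least 50% of their bases repeat-masked in the reference made up 28.0% to 64.8% of distal H3K4me3 peaks (mean, 46.0%; SD, 11.8) and 6.89% to 9.74% of distal H3K27ac peaks (mean, 8.14%; SD, 0.812). The difference, 37.9 percentage points (SD, 11.7), was positive in 12 of 12 pairs (p = 0.000488, exact sign-flip test, the smallest that 12 pairs allow). Left out of the comparison, these peaks took the distal share from 29.8% to 18.6% for H3K4me3 and from 32.9% to 31.3% for H3K27ac. The overlapped share of distal H3K4me3 peaks then rose from 13.8% to 25.1%, and that of H3K27ac peaks was 11.7%. Both differences between the marks, 12.7 and 13.4 percentage points, had an adjusted p of 0.000854 in the exact sign-flip test. With the top 10000 peaks, masked ones again left out, they were −0.148 (adjusted p = 0.862) and 2.46 (adjusted p = 0.265) in that exact test. Mappability was not measured, and the part of mapping in these peaks was not tested.

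Merging the top peaks of all 24 lists gave 21918 distal regions found in at least 2 lists. Of these, 8787 were in H3K27ac lists only, 9011 in H3K4me3 lists only and 4120 in lists of both marks. The exact sign test was run on the 5713 with at least 6 discordant pairs and called 5338 (93.4%), 2991 for H3K27ac (52.4%) and 2347 for H3K4me3 (41.1%). The direction was the same in diabetic and control pairs at 2990 and 2345 of them, which again largely follows from calls made over these same pairs. H3K27ac was in all 12 lists and H3K4me3 in none at 246 regions, the reverse held at 60, and both marks were in all 12 pairs at 58. These counts scaled with the number of peaks used, from 378 and 410 calls with the top 10000 peaks to 8491 and 8242 with the top 40000.

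Distal regions called for H3K27ac lay in introns more often than distal regions at large and had a lower CpG ratio. Introns held 56.2% of them, against 43.3% of all distal regions. The median distance to the nearest protein-coding start site was 13368 bp, against 20049 bp. The median CpG ratio was 0.250, against 0.336. A region 20920 bp upstream of Dennd4a, a regulator of vesicle traffic (chr9:64789531-64791308), had H3K27ac ranks of 93.1, 96.9 and 99.4 (lowest, median and highest) and an H3K4me3 peak in 1 deposited list. A region in an intron of Sipa1l1 (chr12:82225985-82227864) ranked 88.7, 94.7 and 96.5 and had none. The genes with most of these regions nearest to them were Smad7, an inhibitor of TGF-beta signaling, with 18, Gse1 with 15, Zfp36l2, an RNA-decay factor of blood progenitors, with 12, and Runx3, a RUNX family factor, with 11. Regions nearest to the stem and progenitor transcription factors were called for H3K27ac at 30 of 132 (22.7%) and for H3K4me3 at 4, and those nearest to immediate early genes at 13 of 31 (41.9%) and none, against 13.6% and 10.7% of all distal regions.

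Motifs of blood transcription factors were counted at the called regions, and their shares were not tested. Within 1000 bp around the center, a GATA motif was found in 74.3% of the regions called for H3K27ac, 48.2% of those called for H3K4me3 and 70.4% of all distal regions, so the H3K27ac class was near the background. The RUNX motif was found in 58.5%, 23.6% and 48.7%, and the ETS and PU.1 motif in 12.1%, 2.94% and 6.82%. In windows of that length around start sites of all protein-coding genes the shares were 68.5%, 46.1% and 7.02%. These letters are short and CpG-free, so their frequency follows base composition as well, and a match is not evidence of binding.

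Distal regions called for H3K4me3 were of 2 kinds. At least 50% masked were 1401 of 2347 (59.7%), at a median distance of 114207 bp from a protein-coding start site and with a CpG ratio of 0.543. Of these, 98.1% shared an exact run of 50 bases, within 1000 bp around the center, with another region called for H3K4me3. A read of this length inside a run with a second copy cannot be placed uniquely. Windows of close neighbors can overlap, so a shared run need not be a second copy. Among regions called for H3K27ac, 68.1% of those at least 50% masked and 12.1% of the others shared such a run. The other 946 regions called for H3K4me3 lay at a median of 9234 bp. Of these 946, 18.2% shared such a run and 461 had a CpG ratio over 0.6. Around developmental genes these included the region at Uncx, a homeobox gene of the axial skeleton (chr5:139545807-139549078; H3K4me3 ranks, 69.8, 91.8 and 93.8), and the region at Dmrta2, a neural regulator (chr4:109979681-109980797; 66.4, 87.3 and 97), neither with an H3K27ac peak in any deposited list. Regions nearest to the 32 developmental regulators were called for H3K4me3 at 66 of 133 (49.6%) and for H3K27ac at none. Over all regions called for H3K4me3, the genes with most of them nearest were Sfi1 with 14, Gpm6a with 13 and Pax2 with 10. The highest-ranked regions of the class lay in sequence shared by the X and Y chromosomes (near Gm21887 and Gm47283), where placement is uncertain. Both were 33.1% masked, so they count among the 946.

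The 58 distal regions with both marks in all 12 pairs were small in number and high in CpG, with a median ratio of 0.799. Of these, 15 (25.9%) lay in 1 array on chromosome 6 between Ezh2, the H3K27 methyltransferase gene, and Pdia4, from chr6:47654334 to 47773285. Neighbors in the array were spaced by a median of 4371.5 bp, with 10 of 14 gaps within 200 bp of it. Whole copies of the 174-base Rn4.5s gene, printed above, were found without mismatch in 10 of the 15. Median ranks of the 15 regions were 95.7 to 97 for H3K27ac and 88.2 to 94.8 for H3K4me3. The copies are near-identical, so the signal of the array cannot be assigned to single copies. Of the other 43 regions, 25 had a RefSeq start site within 1000 bp that the main annotation did not hold, so part of the class was start sites by another annotation.

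Transfer RNA genes, transcribed by RNA polymerase III, were scored in the same way. Of 403, 22 had both marks in all 12 pairs, 92 in 6 or more pairs, and 184 had no top peak. Of all protein-coding genes, 23.1% had both marks in all pairs and 29.2% had no top peak. H3K27ac was in 6 or more lists with H3K4me3 in fewer at 53, and the reverse at 7. Among the 315 over 1000 bp from a start site of another gene, 4 had both marks in all pairs, 45 in 6 or more, and 163 had no top peak. At 41 of these, H3K27ac was in 6 or more lists with H3K4me3 in fewer, and the reverse held at 4. The part of neighboring start sites in the counts for all 403 was not tested.

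Diabetic and control pairs were compared on 6 measures with an exact permutation test over all arrangements, and none passed the threshold. Genes with both marks made up 32.3%, 46.8% and 50.2% (lowest, median and highest) in diabetic pairs and 44.1%, 45.1% and 46.3% in control pairs, a mean difference of −0.767 percentage points (adjusted p = 0.924, exact permutation test). In all, 4 diabetic pairs lay above all controls and 2 below. Without diabetic pair 6 the difference was 1.64 percentage points (adjusted p = 0.299, exact permutation test). H3K27ac alone differed by 1.31, H3K4me3 alone by −1.41 and the overlapped share of distal H3K27ac peaks by 0.919 percentage points, each with an adjusted p of 0.906 in the exact permutation test. Spearman rho differed by 0.0108 at promoters and by −0.0368 at distal regions, with adjusted p of 0.924 and 0.906 in that exact test. The difference between the marks itself, compared between disease groups on 6 measures, had adjusted p from 0.565 to 0.675 (exact permutation test).

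The same classes were read in unstimulated bone marrow–derived macrophages (BMDM), grown from the marrow of such diabetic and control mice in medium with 5 mmol/L glucose, whose 11 pairs (5 diabetic and 6 control) were not used to define them. Distal regions with both marks in all HSC pairs had H3K27ac in 96.1% and H3K4me3 in 95% on average over BMDM lists. Distal regions called for H3K27ac in HSC had H3K27ac in 34.3% (SD, 5.58; range, 26.3% to 44.2%) and H3K4me3 in 8.74%, and those called for H3K4me3 had H3K4me3 in 47.9% (SD, 16.9; range, 21.4% to 78.0%) and H3K27ac in 7.92%. Over all distal regions the values were 14.7% for H3K27ac and 17.4% for H3K4me3. Within the H3K4me3 class, H3K4me3 was found at 37.9% of the regions with at least 50% of bases masked and at 62.6% of the others. At promoters called for H3K4me3 the values were 73.9% for H3K4me3 and 17.2% for H3K27ac, and at the developmental regulators 91.2% and 10.2%, against 55.4% and 50.4% over all promoters. Promoters called for H3K27ac were less far apart, with 35.9% for H3K4me3 and 63.2% for H3K27ac. Each class thus kept its order of marks in the other cell type, on average. H3K4me3 lists were shorter in HSC (mean, 71420 peaks) than in BMDM (mean, 131699), and the part of list length in the differences that follow was not tested. Between cell types, HSC pairs had more genes with H3K27ac alone (8.43% against 4.51%; adjusted p = 0.00018, permutation test), with 9 of 12 HSC pairs above all BMDM pairs. They had fewer distal H3K27ac peaks overlapped by H3K4me3 (11.4% against 21%; permutation p = 1e-05, the smallest that the draws can give; adjusted p = 6e-05), with 9 of 12 below all BMDM pairs, and at the top 10000 peaks this difference was −2.14 percentage points (adjusted p = 0.529, permutation test). Promoter rho was lower in HSC (0.461 against 0.602; adjusted p = 0.0192, permutation test), but the difference was −0.0131 when only the top 20000 peaks were ranked (adjusted p = 0.783, permutation test).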

How the data were processed

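ChIP-seq for H3K27ac (abcam ab4729) and H3K4me3 (abcam ab8580) was performed with the MAGnify kit and sequenced as 50-bp single reads. The authors deposited narrow peak lists, called per library against the input of the same number. Deposited columns held a score, the fold enrichment over background, the −log10 p-value, the −log10 q-value and the summit position, with all q-values at or below 0.05. Read counts were not used, so sequencing depth is unknown and only list lengths are given. Per the submitters' processing notes the tools were Bowtie2 2.2.6, MACS2 2.2.7.1, Picard 2.18.14 and 2.19.2, Trim Galore 0.3.3, cutadapt 1.8, FastQC 0.11.3 and bedtools 2.19.1, on GRCm38; no peak passed a chromosome end of that build.

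Peaks on the 19 autosomes, X and Y were ranked by −log10 p, and the top 20000 per list were kept. Start sites came from GENCODE M21. Analysis used Python 3.11.15, NumPy 2.4.6, pandas 2.3.3 and SciPy 1.17.1. The exact sign-flip, exact permutation and sign tests were tried on simulated data. The pair was the replicate block in every comparison of the marks, because both lists of a number shared an input; deviations from the group means of same-numbered lists correlated at 0.0621 to 0.290 (9 of 12 over 0.1), and same-numbered lists overlapped more than others of their group (mean Jaccard index, 0.423 against 0.414; p = 1e-05 in a permutation test, 1-sided, the smallest the draws can give). Marks were compared with exact sign-flip tests (7 tests), disease groups with exact permutation tests (6 tests) and cell types with 100000 draws (6 tests), each family adjusted by Benjamini-Hochberg, with a threshold of 0.05. Nothing in the labels says that the libraries came from separate preparations beyond their numbers, so p-values measure the spread between these samples.

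Named promoters and regions were, per class, the 10 with most discordant pairs and then the widest rank difference, the 10 highest-ranked or most differently ranked among those with both marks in all pairs, up to 4 or all members of each gene list, and Il6, Hk1, Runx1 and Spi1. Members and lists were chosen with earlier results of these data known. Alternatives were other numbers of peaks, a q of 0.01, ranking by fold, other windows, no replicate block and each pair left out. Chosen after the data were seen were the exclusion of repeat-masked peaks, the settings of the BMDM comparison and list counts under other settings. Some named items are not reported here.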

Additional observations from a re-analysis of the deposited data

Results flagged for a closer look

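The highest and lowest values within groups of 6 lists or pairs were checked with Dixon's criterion in 34 groups, which by chance alone picks out about 1 group in 20, and 2 values met it. The share of distal H3K27ac peaks overlapped by H3K4me3 was 4.91% in diabetic pair 6, where the H3K4me3 list had 13730 peaks, against 11.7% to 15.2% in the other 5 diabetic pairs. The length covered by H3K4me3 was 50.3 Mb in control replicate 1, against 18.7 to 29.7 Mb in the other 5 control lists. Promoter rho in that control pair, 0.605, was the highest of the 6 controls.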

How the results depend on the processing

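Over 24 results and 352 alternatives, 309 kept their direction and side of the threshold or, for counts of calls, stayed within 1.5 times the reported count. Of the rest, 8 lost the threshold, 22 turned and 13 counts moved by over 1.5 times. Without the replicate block every result so refitted kept its direction and side of the threshold, while 1195 and 1810 promoters and 2210 and 1608 distal regions were called for H3K27ac and H3K4me3, against 1256, 1896, 2991 and 2347 with the pairing. The cause of these shifts was not tested. The difference in promoter share (H3K4me3 minus H3K27ac) was −3.05 percentage points with the top 10000 peaks, −2.32 with full lists, −2.45 at a q of 0.01 and −0.915 ranked by fold. The distal share (H3K27ac minus H3K4me3) was −2.01 with the top 10000 peaks, −0.148 when masked peaks were also left out, 1.58 by fold and 1.86 at 2500 bp. Distal overlap (H3K4me3 minus H3K27ac) was −1.58, 2.46 and 1.34 under the first 3 of these. The log2 width difference was −0.102 with full lists and −0.114 at a q of 0.01. Diabetic minus control, genes with both marks differed by 1.56 by fold, and from −1.93 to 1.64 with 1 pair left out. H3K27ac alone differed by −1.13 with full lists, −1.03 at a q of 0.01, −0.0228 by fold, and −0.0441 to 1.98 with 1 pair left out, the lowest without diabetic pair 6. H3K4me3 alone differed by 0.543 with full lists and 0.50 at a q of 0.01. Promoter rho differed by −0.0344 to 0.0559 with 1 pair left out, and distal rho by 0.0143 over the top 20000 peaks. HSC minus BMDM, H3K4me3 alone differed by 0.505 and distal overlap by −2.14 with the top 10000 peaks, and promoter rho by −0.0131 over the top 20000 peaks.

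Of all protein-coding genes, 10.5% were called for H3K27ac with the top 10000 peaks (2306 genes) and 3.55% with the top 40000 (778), and 4.13% were called for H3K4me3 with full lists (905) and 4.21% at a q of 0.01, against 5.73% and 8.64% as reported. Distal calls for H3K27ac and H3K4me3 were 378 and 410 with the top 10000 peaks, 8491 and 8242 with the top 40000, 28832 and 11010 with full lists and 27986 and 10590 at a q of 0.01, and 1271 for H3K4me3 by fold. Without reads or input coverage, a missing peak cannot be told apart from one below the detection limit of its list.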
